A study of Homo sapiens with 21 samples.

Results

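A set of 10 genes that act on the poly(A) tail or the cap of mRNAs was followed in breast cancer cells exposed to THZ1, a covalent inhibitor of the transcription kinase CDK7. The genes were taken by symbol from the array annotation, as listed deadenylation, decapping, AU-rich element binding and tail-extending factors, and are 10 of the 18132 genes on the array: TENT5C, TOB1, TOB2, BTG1, ZFP36, ZFP36L1, ZFP36L2, DCP1B, DCP2 and CNOT1. TENT5C and DCP1B were picked for the way their intensities moved across doses and lines, so their values are described here without a test. The other 8 were tested among all genes, but the whole list was drawn up with earlier results of these data known.

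At 50 nM, TENT5C, a cytoplasmic poly(A) polymerase, was 2.9-fold higher in MDA-MB-468 and 1.5-fold higher in ZR-75-1, and at 250 nM it was 2.38-fold and 2.59-fold lower in the same lines. DCP1B, a cofactor of the decapping enzyme, had 3.03-fold less intensity at 50 nM in BT-549 and 2.31-fold less in T47D, and its main probe set was not above background in MDA-MB-468. The 3 ZFP36 genes, which bind AU-rich elements, fell at 250 nM in all 3 replicated lines, by 7.5-fold for ZFP36 in MDA-MB-468 and 6.99-fold for ZFP36L2. On their main probe sets CNOT1 and DCP2 differed from DMSO by at most 0.35 on the log2 scale in these lines, without rescaling of the arrays.

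The data are 21 expression arrays of total RNA from 4 established human breast cancer cell lines: MDA-MB-468 and BT-549, which lack estrogen, progesterone and HER2 receptors (triple-negative), ZR-75-1 (ER+) and T47D (ER+/PR+). Each line received DMSO, 50 nM THZ1 or 250 nM THZ1 for 6 hours. BT-549 was run on 1 array per dose and each of the others on 2. The labels do not say whether the 2 arrays came from separate cultures, so p-values measure only the spread between them.

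The source label of the T47D and ZR-75-1 arrays gives MDA-MB-468, so line identity was taken from the titles and the cell line field. ESR1, the estrogen receptor, averaged 442 in ZR-75-1 and 906 in T47D, against 30.9 in MDA-MB-468, and the basal keratin KRT5 averaged 3505 in MDA-MB-468, against 43.1 in ZR-75-1 (DMSO arrays). VIM, a mesenchymal filament, was at 14442 in BT-549. Replicate arrays correlated at 0.9905 to 0.9934 over the 12644 genes tested, and array means lay between 326.4 and 342.8. The summed intensity of 7 immune and stromal markers was 255 to 508 in every group. PTPRC, the pan-leukocyte marker, was not above background on DMSO arrays of any line, and DCN only on 1 array of T47D. CD3E, CD68, PECAM1, VWF and COL1A1 were above background on all DMSO arrays. Their line means were 30.7 to 78.5, apart from COL1A1 in BT-549 (278.3). Intensities are linear, a gene is read from its probe set with the highest mean, and a change passed the test at a limma adjusted p under 0.05 (Benjamini-Hochberg over all 12644 genes). Background was the mean of 23 background probe sets on the same array (23.5 to 31.4). In bulk RNA, fewer cells and less RNA per cell cannot be told apart, and an equal mass of RNA was labelled per array.

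Most mRNA decay begins with removal of the poly(A) tail by the CCR4-NOT deadenylase, which CNOT1 holds together. ZFP36 proteins and the BTG and TOB proteins recruit that complex to chosen mRNAs, and DCP2 with its DCP1 partners then removes the cap. TENT5C acts the other way, adding adenosines to the tails of selected mRNAs, and is best known as a tumour suppressor in multiple myeloma. ZFP36 is a classic immediate-early gene with a short-lived mRNA.

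RefSeq (GRCh38.p14) windows of 250 bases before the annotated start were found for 8 of the 10 genes; ZFP36L2 and CNOT1 are named only. Windows are shown for the 2 genes picked by pattern, for ZFP36, which was lower at both doses in MDA-MB-468, and for BTG1, which was higher at 50 nM and lower at 250 nM. Capitals mark matches, on either strand, to the TATA box letters TATAAA, the CCAAT box, the GC box letters GGGCGG, the letters TGACG found within the cAMP response element, and the ETS core letters CCGGAAG, and none of the marked matches overlap. The TENT5C window is on the plus strand at chr1:117605798-117606047, BTG1 on the minus strand at chr12:92145847-92146096, ZFP36 on the plus strand at chr19:39406597-39406846 and DCP1B on the minus strand at chr12:2004458-2004707. Each is written 5′ to 3′ on the strand of its gene.
TENT5C: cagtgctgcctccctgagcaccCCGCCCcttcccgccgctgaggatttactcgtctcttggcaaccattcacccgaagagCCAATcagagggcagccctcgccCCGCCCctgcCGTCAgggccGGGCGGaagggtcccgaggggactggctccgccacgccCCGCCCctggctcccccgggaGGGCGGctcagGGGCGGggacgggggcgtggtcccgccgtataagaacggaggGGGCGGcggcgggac
BTG1: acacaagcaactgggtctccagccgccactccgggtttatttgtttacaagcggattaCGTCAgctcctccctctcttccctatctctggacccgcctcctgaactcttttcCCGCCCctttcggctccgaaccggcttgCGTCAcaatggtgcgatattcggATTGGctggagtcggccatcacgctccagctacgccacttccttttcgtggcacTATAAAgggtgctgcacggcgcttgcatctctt
ZFP36: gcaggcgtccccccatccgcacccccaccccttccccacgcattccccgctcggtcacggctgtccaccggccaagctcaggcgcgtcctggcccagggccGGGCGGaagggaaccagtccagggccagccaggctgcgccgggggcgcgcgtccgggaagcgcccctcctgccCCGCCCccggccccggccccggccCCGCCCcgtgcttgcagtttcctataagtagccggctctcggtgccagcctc
DCP1B: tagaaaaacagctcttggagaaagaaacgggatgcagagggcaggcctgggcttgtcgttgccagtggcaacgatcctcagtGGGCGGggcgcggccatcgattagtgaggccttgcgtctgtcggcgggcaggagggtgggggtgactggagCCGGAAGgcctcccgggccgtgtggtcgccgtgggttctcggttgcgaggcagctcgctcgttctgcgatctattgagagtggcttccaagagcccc

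GC content was 74.0% for TENT5C, 56.4% for BTG1, 76.4% for ZFP36 and 63.6% for DCP1B, and the median of all 35116 windows was 58.0%. TENT5C has 7 GC boxes, 1 CCAAT box and 1 TGACG. BTG1 has a TATAAA that begins 33 bases before the start, with 1 CCAAT box, 1 GC box and 2 TGACG. ZFP36 has 3 GC boxes, and DCP1B has 1 GC box and 1 CCGGAAG. Of all windows, 10.7% hold TATAAA, 32.0% CCAAT, 42.6% GGGCGG, 21.2% TGACG and 8.52% CCGGAAG. The CArG box, in 1.16% of windows, was also searched and has no match in the 4 windows shown. DCP2 holds 5 CCAAT boxes and TOB2 holds 2 GC boxes and no CCAAT box. A match is a run of letters and not a measured binding site.

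ZFP36 (tristetraprolin) binds AU-rich elements of cytokine and growth factor mRNAs and brings the deadenylase to them. In MDA-MB-468 its intensity was 691 and 807 with DMSO, 432 and 371 at 50 nM and 99.9 and 99.3 at 250 nM. ZR-75-1 had 836 and 1072 with DMSO, 911 and 879 at 50 nM and 186 and 152 at 250 nM. T47D had 783 and 825, then 735 and 724, then 169.8 and 247 at the same doses. The 250 nM arrays were far below the DMSO arrays in each line, and at 50 nM only the MDA-MB-468 and T47D arrays lay wholly below theirs. In BT-549 the single arrays read 811 with DMSO, 294 at 50 nM and 295 at 250 nM, so both doses stood at the same level. At 250 nM ZFP36 fell by 2.91 ± 0.15 on the log2 scale in MDA-MB-468 (SE, limma adjusted p = 2.48e-10), it fell by 2.49 in ZR-75-1 (7.24e-10) and it fell by 1.97 in T47D (3.27e-08). At 50 nM it fell by 0.90 ± 0.15 in MDA-MB-468 (adjusted p = 0.000547). The 50 nM change was -0.08 in ZR-75-1 (95% interval -0.40 to 0.24, adjusted p = 0.834) and -0.14 in T47D (-0.46 to 0.18, 0.663), and the difference between lines at 50 nM was not tested.

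ZFP36L2 also recruits the deadenylase to AU-rich mRNAs and is known for roles in blood cell development. Its intensity in MDA-MB-468 was 1244 and 1221 with DMSO, 1006 and 1049 at 50 nM and 179 and 173 at 250 nM. ZR-75-1 had 1374 and 1412, then 1328 and 1263, then 303 and 274, and T47D had 1828 and 1905, then 1865 and 1890, then 334 and 392. No 250 nM array came near a DMSO array of its line. BT-549 read 681, 429 and 211 across the same doses. At 250 nM ZFP36L2 fell by 2.81 ± 0.07 in MDA-MB-468 (SE, log2, adjusted p = 2.24e-13), by 2.27 in ZR-75-1 (9.26e-13) and by 2.37 in T47D (6.48e-12), 6.99-fold, 4.83-fold and 5.16-fold lower. With the mean of all its probe sets the changes were -1.74, -1.36 and -1.48. Here and below, the mean of all probe sets includes those that did not pass the filter. It also fell by 0.26 ± 0.07 at 50 nM in MDA-MB-468 (adjusted p = 0.0194), a call that was lost when arrays were centred on their median (0.331) and without any 1 of the 4 arrays (0.0566 to 0.129). All 3 of its probe sets that passed the filter fell at 250 nM in each replicated line, where 26.7%, 38.7% and 29.7% of all probe sets were called lower (MDA-MB-468, then ZR-75-1, then T47D).

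ZFP36L1 is the third of these AU-rich element binders, and its values come from 1 bright probe set. MDA-MB-468 had 2622 and 2596 with DMSO, 2464 and 2419 at 50 nM and 951 and 905 at 250 nM. ZR-75-1 had 1598 and 1582, then 1540.5 and 1559, then 702 and 641, and T47D had 2456 and 2556, then 2503 and 2699, then 1252 and 1290.2. The 50 nM arrays of T47D overlapped DMSO, and all 250 nM arrays were below it. BT-549 read 3743, 2903 and 2483, the highest level of any line at 250 nM. ZFP36L1 fell at 250 nM by 1.49 ± 0.06 in MDA-MB-468 (SE, log2, adjusted p = 7.5e-12), 1.24 in ZR-75-1 (2.84e-11) and 0.98 in T47D (1.65e-09). No change at 50 nM passed the test (-0.10, -0.04 and 0.05 in MDA-MB-468, in ZR-75-1 and in T47D, adjusted p = 0.267, 0.786 and 0.655). The size of the fall rests on that probe set: with the mean of all its probe sets the change was -0.33 in MDA-MB-468, -0.44 in ZR-75-1 and -0.49 in T47D, each still past the test's threshold. The other 4 probe sets that passed the filter were dim (28.9 to 133.9), and their changes at 250 nM ran between -0.47 and 0.17 in MDA-MB-468, -0.49 and 0.00 in ZR-75-1, and -0.89 and -0.25 in T47D. Of all 5, 2 were called lower in MDA-MB-468, 1 in ZR-75-1 and 2 in T47D.

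**Figure D1:**
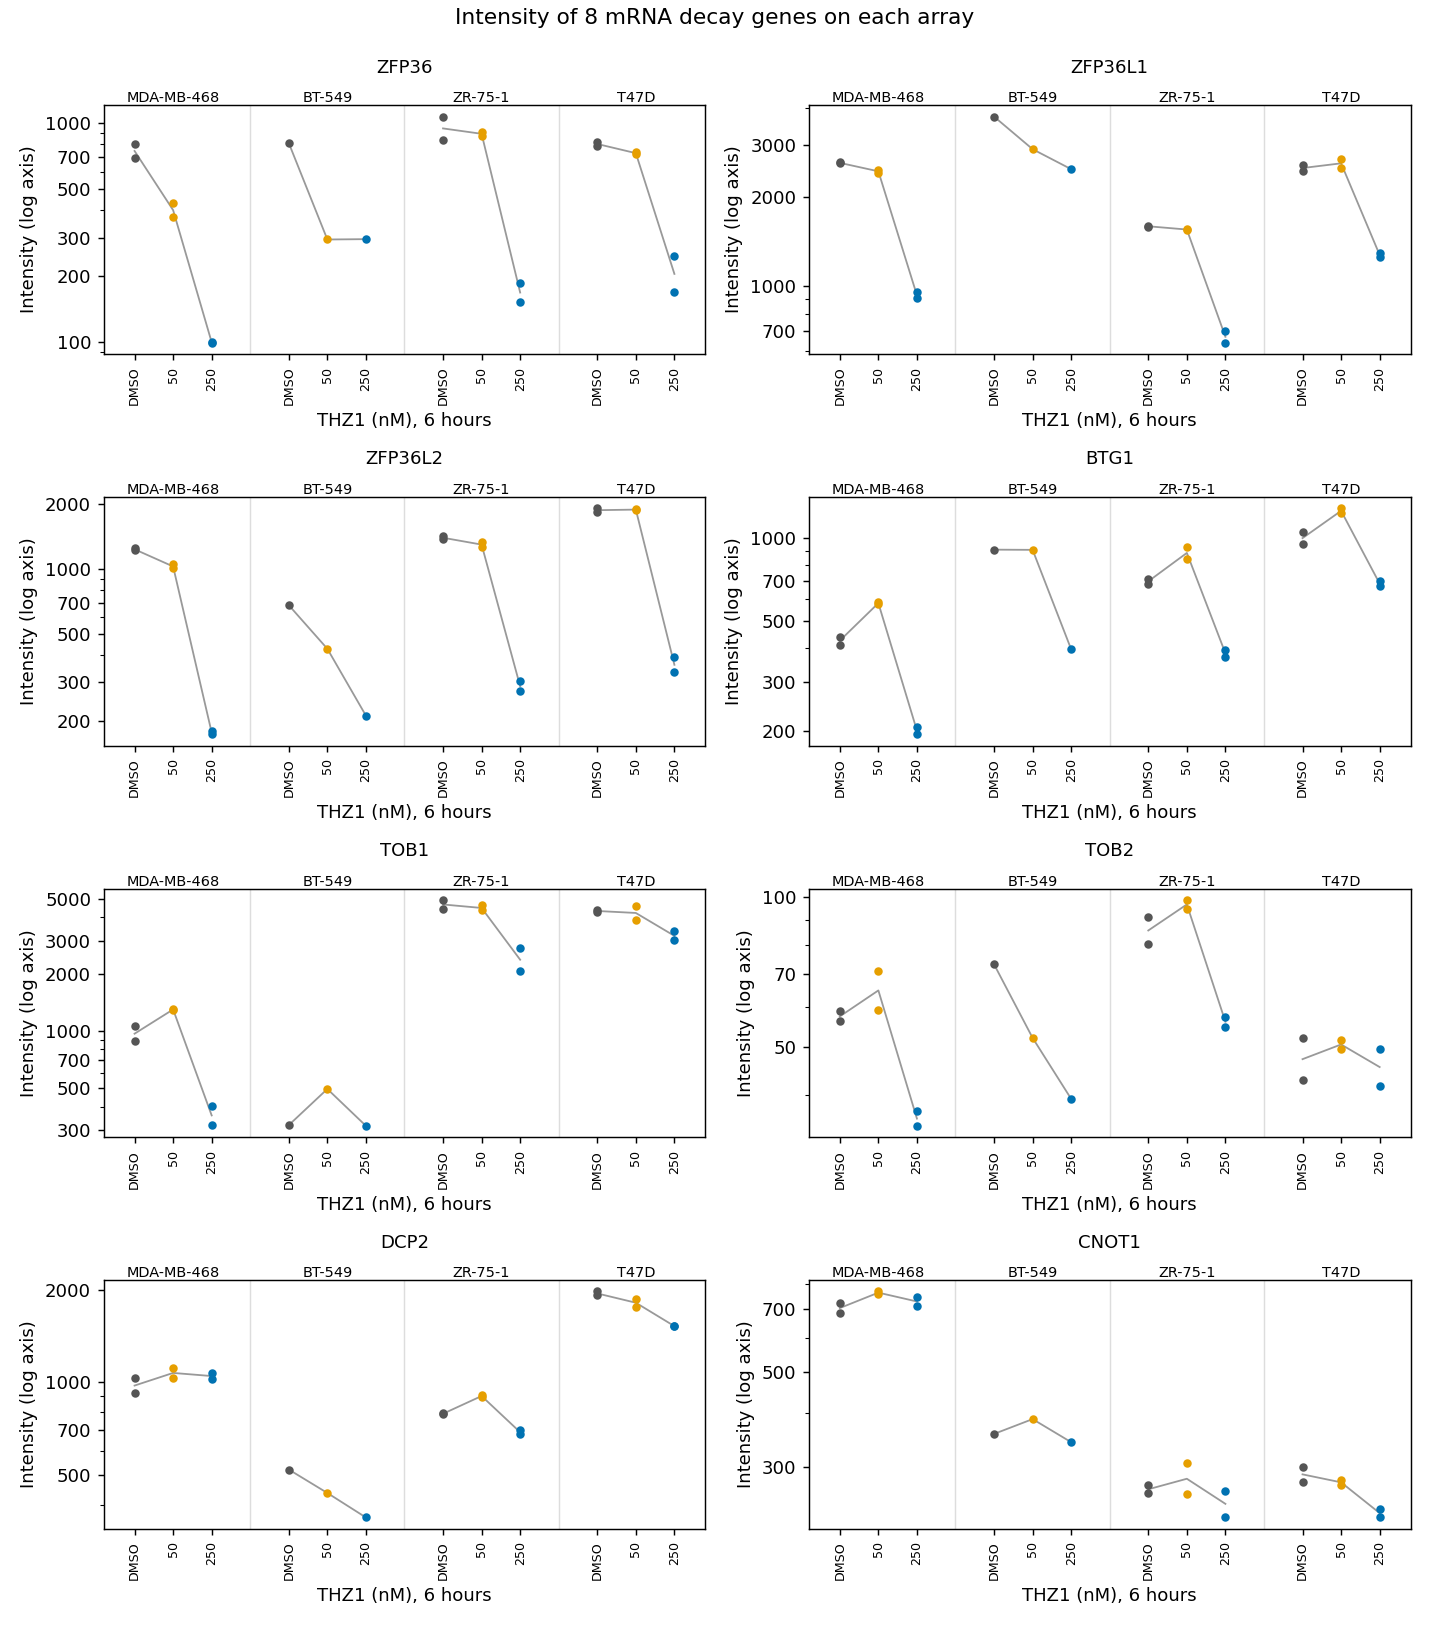
Intensity (log axis) of 8 genes on every array, by cell line and THZ1 dose (DMSO, 50 nM, 250 nM; 6 hours). Points are arrays (2 per group, 1 in BT-549) and lines join the geometric means. ZFP36 drops to 99.9 and 99.3 at 250 nM in MDA-MB-468, BTG1 is highest at 50 nM in 3 lines, and CNOT1 stays within 683 to 768 in MDA-MB-468.

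BTG1 is an antiproliferative protein that binds the catalytic subunits of the deadenylase. Its response changed direction with dose. MDA-MB-468 arrays read 411 and 439 with DMSO, 585 and 578 at 50 nM and 207 and 195 at 250 nM. ZR-75-1 had 685 and 711, then 929 and 842, then 393 and 372, and T47D had 1054 and 950.3, then 1229 and 1284, then 672 and 697. In all 3 lines the 50 nM arrays were above DMSO and the 250 nM arrays below it, with no overlap. BT-549 had 909 with DMSO, 907 at 50 nM and 396 at 250 nM, so the 50 nM array was level with DMSO there. At 50 nM BTG1 rose by 0.45 ± 0.07 in MDA-MB-468 (SE, log2, adjusted p = 0.000292), 0.34 in ZR-75-1 (0.00707) and 0.33 in T47D (0.0073). The T47D call was lost when arrays were scaled to control transcripts (0.17, adjusted p = 0.191), and those of ZR-75-1 and T47D without 1 of their arrays (0.0578 to 0.116). At 250 nM it fell by 1.08 in MDA-MB-468 (3.48e-09), 0.87 in ZR-75-1 (2.5e-08) and 0.55 in T47D (1.04e-05), and the ZR-75-1 change was -0.52 under quantile normalization. A second probe set gave 0.47, 0.41 and 0.34 at 50 nM and -1.06, -0.84 and -0.66 at 250 nM in the same line order.

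TOB1 links the poly(A)-binding protein to the deadenylase. MDA-MB-468 had 886 and 1060.1 with DMSO, 1305 and 1297 at 50 nM and 321 and 402 at 250 nM. ZR-75-1 had 4924 and 4401, then 4600.4 and 4327, then 2732 and 2073, and T47D had 4358 and 4245, then 3837 and 4595, then 3005 and 3364. The 250 nM arrays lay below DMSO in each of these lines, and the 50 nM arrays lay above DMSO in MDA-MB-468 alone of the 3. In BT-549 it read 319, 495 and 316, high at 50 nM and level with DMSO at 250 nM. TOB1 fell at 250 nM by 1.43 ± 0.13 in MDA-MB-468 (SE, log2, adjusted p = 1.72e-07), 0.97 in ZR-75-1 (8.67e-06) and 0.44 in T47D (0.013). The T47D call was lost without the first DMSO array or the first 250 nM array (adjusted p = 0.0679 and 0.106). It rose by 0.42 ± 0.13 at 50 nM in MDA-MB-468 (adjusted p = 0.0328), and 3 of the 4 arrays involved ended that call when left out (0.126 to 0.258).

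TOB2, its close relative, was dim, between 34.7 and 98.6 over all arrays and near the filter level of 57.4. MDA-MB-468 had 58.9 and 56.2 with DMSO, 71.1 and 59.2 at 50 nM and 34.7 and 37.1 at 250 nM. ZR-75-1 had 91.0 and 80.5, then 98.6 and 94.5, then 54.8 and 57.5, while T47D stayed between 41.8 and 52.1 at every dose. The 250 nM arrays were lowest in MDA-MB-468 and ZR-75-1, and overlapped DMSO in T47D. TOB2 fell at 250 nM by 0.68 ± 0.14 in MDA-MB-468 (SE, log2, adjusted p = 0.000758) and by 0.61 in ZR-75-1 (0.00127), the second of which missed the threshold under quantile normalization (-0.30, adjusted p = 0.0688). The T47D change was -0.05 (95% interval -0.34 to 0.24, adjusted p = 0.794). BT-549 read 73.2, 52.1 and 39.3 across the doses.

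CNOT1, the scaffold of the CCR4-NOT complex, was nearly level on its main probe set. Its arrays in MDA-MB-468 read 683 and 723 with DMSO, 768 and 759 at 50 nM and 710.3 and 746 at 250 nM. ZR-75-1 had 261 and 272, then 307 and 259, then 264 and 230.1, and T47D had 301 and 277, then 273 and 279.7, then 229 and 240. Arrays of 250 nM and DMSO overlapped in MDA-MB-468 and ZR-75-1 and not in T47D. In BT-549 it was 358, 388 and 343. The change at 250 nM was 0.05 in MDA-MB-468 (95% interval -0.13 to 0.23, adjusted p = 0.698) and -0.11 in ZR-75-1 (-0.30 to 0.07, 0.306), where quantile normalization turned it to 0.35 (0.00077) and scaling to control transcripts made it -0.51 (0.000412). A dimmer probe set was called lower in ZR-75-1 (-0.31, limma adjusted p = 0.018) and in T47D (-0.28, 0.0404). Of the 4 that passed the filter, 0, 1 and 2 were called lower in MDA-MB-468, in ZR-75-1 and in T47D. Beside these, 26.7%, 38.7% and 29.7% of all probe sets were called lower. In T47D CNOT1 fell by 0.30 ± 0.09 (adjusted p = 0.0106), a call that quantile normalization (0.00, adjusted p = 0.984) and median centring (-0.18, 0.182) removed and that was lost without 1 of 2 arrays (0.0718 and 0.102).

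DCP2 is the enzyme that cuts the cap. In MDA-MB-468 it had 923 and 1033 with DMSO, 1116 and 1033 at 50 nM and 1022 and 1076 at 250 nM. ZR-75-1 had 789 and 792, then 898 and 908, then 699.6 and 677, and T47D had 1921 and 1978, then 1765 and 1873, then 1525 and 1525. The 250 nM arrays overlapped DMSO in MDA-MB-468 and lay below it in ZR-75-1 and T47D. BT-549 read 520.3, 436 and 363. DCP2 fell at 250 nM by 0.35 ± 0.06 in T47D (SE, log2, adjusted p = 0.000235) and by 0.20 ± 0.06 in ZR-75-1 (0.0131). The ZR-75-1 change turned positive when arrays were centred on their median (0.05, adjusted p = 0.611) and under quantile normalization (0.01, 0.853), and passed the test under neither. The ZR-75-1 call was also lost without the second 250 nM array (adjusted p = 0.0767). In MDA-MB-468 the change was 0.10 (95% interval -0.03 to 0.24, adjusted p = 0.22), and it passed the test as higher under both of those scalings (0.30 and 0.14).

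DCP1B, one of 2 human DCP1 proteins that stimulate DCP2, was read from a main probe set whose level differed between lines already with DMSO. T47D had 172 and 179 with DMSO, 69.9 and 82.8 at 50 nM and 37.5 and 46.4 at 250 nM. ZR-75-1 had 168 and 134, then 112 and 100.3, then 41.2 and 27.5, and 1 of its 2 arrays at 250 nM was not above background. BT-549 had 154 with DMSO, 50.6 at 50 nM and 49.1 at 250 nM. Arrays separated by dose without overlap in T47D and ZR-75-1, and both doses of BT-549 stood near 50. On this probe set all 6 MDA-MB-468 arrays read 18.8 to 25.6, none above background, so no fold is given for that line. The log2 difference from DMSO at 50 nM was -1.21 ± 0.20 in T47D and -0.50 ± 0.20 in ZR-75-1 (SE), and at 250 nM it was -2.07 and -2.16, or 4.21-fold and 4.46-fold lower. BT-549 differed by -1.60 at 50 nM and -1.65 at 250 nM. A second, dim probe set (25.2 to 60.2 over all arrays) did not share this pattern, with 0.05 at 50 nM and -0.25 at 250 nM in T47D and 0.18 and 0.07 in ZR-75-1. It was above background on all 6 MDA-MB-468 arrays, with changes of -0.45 and 0.07, and its DMSO means of 41.2 in MDA-MB-468, 37.1 in ZR-75-1, 55.7 in T47D and 29.2 in BT-549 did not set MDA-MB-468 apart.

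TENT5C had its highest level at 50 nM in MDA-MB-468, BT-549 and ZR-75-1. MDA-MB-468 arrays read 126 and 135 with DMSO, 352 and 408 at 50 nM and 55.1 and 54.8 at 250 nM. ZR-75-1 had 424 and 378, then 683 and 526, then 150 and 159.6, and T47D had 172 and 199.5, then 172 and 270.2, then 113 and 162. At 50 nM the arrays were clear of DMSO in MDA-MB-468 and ZR-75-1 and overlapped it in T47D, and at 250 nM they lay below DMSO in all 3. BT-549 read 40.4 with DMSO, 74.2 at 50 nM and 54.4 at 250 nM, so its 250 nM array was above DMSO, unlike the other lines. The log2 difference from DMSO at 50 nM was 1.54 ± 0.19 in MDA-MB-468, 0.58 in ZR-75-1 and 0.22 in T47D (SE 0.19 for each), and 0.88 in BT-549. At 250 nM it was -1.25, -1.37 and -0.46, and 0.43 in BT-549. Between 250 and 50 nM TENT5C differed 6.89-fold in MDA-MB-468, 3.87-fold in ZR-75-1 and 1.6-fold in T47D, lower at 250 nM each time.

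TENT5C has 2 further probe sets, described like the first with no test. The second was above background on every array and gave 0.88, 0.59 and 0.15 at 50 nM and -0.66, -1.50 and -0.74 at 250 nM in MDA-MB-468, in ZR-75-1 and in T47D. The third lay at 20.7 to 67.8, passed the filter through ZR-75-1 at 50 nM alone, and was not above background on any 250 nM array of MDA-MB-468 or T47D. In ZR-75-1, where it was above background at each dose, it gave 0.63 at 50 nM and -0.29 at 250 nM. T47D had the smallest difference at 50 nM on the first and second probe sets. Without the second T47D array at 50 nM the main probe set gave -0.11 there.

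**Figure D2:**
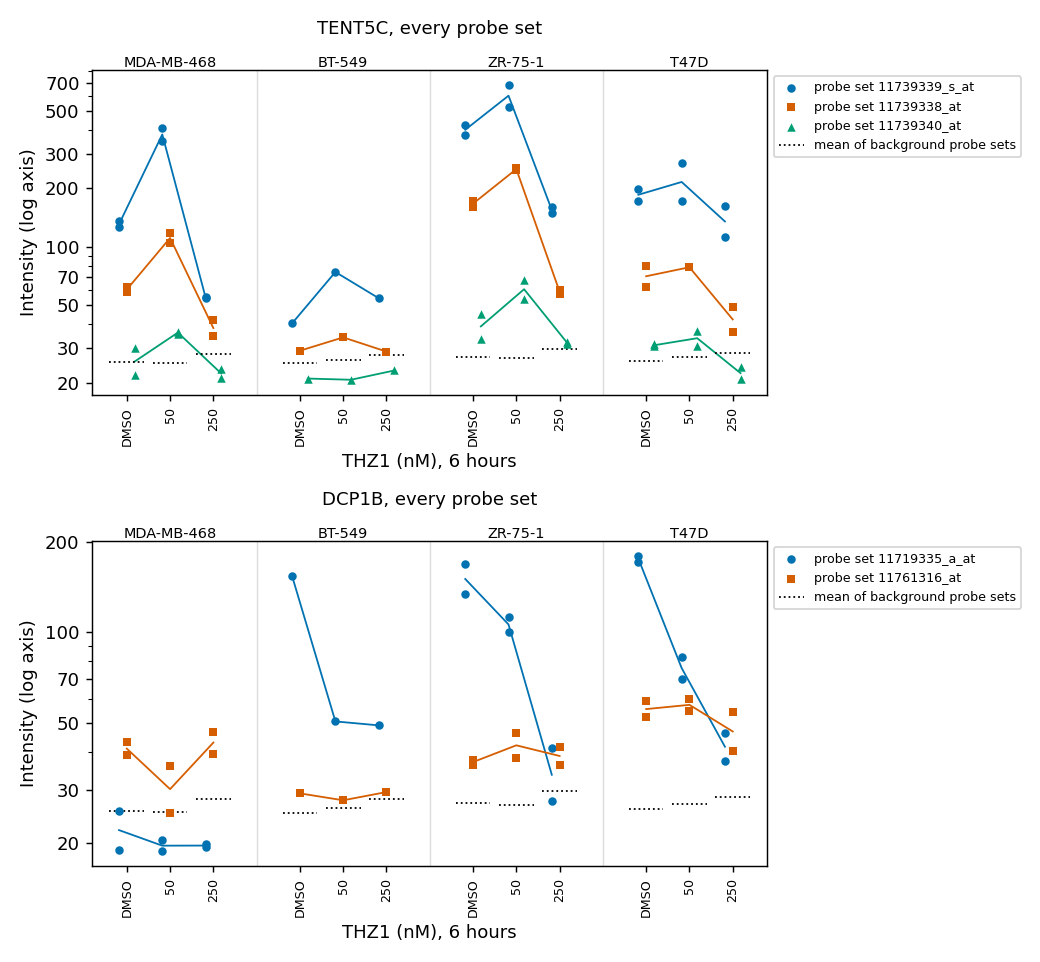
Intensity (log axis) of every probe set of TENT5C (top) and DCP1B (bottom) on each array, by line and THZ1 dose, with lines through the geometric means and dotted segments at the mean of the background probe sets. The main TENT5C probe set peaks at 50 nM in MDA-MB-468 (352 and 408), and the main DCP1B probe set steps down with dose in T47D and ZR-75-1 and lies at 18.8 to 25.6 in MDA-MB-468.

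Counted over the 8 tested genes, which were listed with earlier results of these data known, most were lower at the higher dose. At 250 nM against DMSO, 6 of 8 fell in MDA-MB-468 (all but DCP2 and CNOT1), where 30.3% of all tested genes were called lower. In ZR-75-1, 7 of 8 fell (all but CNOT1; 42.8% of all genes), and in T47D 7 of 8 (all but TOB2; 33.7%). None rose in any of the 3 lines, where 9.54%, 9.93% and 9.61% of all genes were called higher in MDA-MB-468, in ZR-75-1 and in T47D, and no positive change of the 8 had an unadjusted p under 0.05 in limma. The median change of the 8 genes was -1.25, -0.92 and -0.50 in that order of lines, beside -0.07, -0.18 and -0.08 over all genes. The 250 nM arrays against those of 50 nM gave 6, 7 and 7 lower genes, beside 23.2%, 41.7% and 27.2% of all genes, and no higher one, beside 5.73%, 6.64% and 4.59%. The median change of the 8 in that comparison was -1.46, -1.06 and -0.64, beside -0.01, -0.17 and -0.05 over all genes. DCP2 and CNOT1 in MDA-MB-468 changed by only -0.03 and -0.07.

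At the lower dose they were divided. In MDA-MB-468 at 50 nM, 2 of 8 fell (ZFP36 and ZFP36L2; 14.6% of all genes were called lower) and 2 rose (BTG1 and TOB1; 4.42% called higher). In ZR-75-1 and T47D BTG1 alone passed the test, as higher, where 2.79% and 1.99% of all genes were called higher and 5.68% and 7.56% lower. In BT-549, with 1 array per dose and no test, 1 of the 8 was at least 2-fold lower at 50 nM (ZFP36, 2.76-fold) and 3 at 250 nM (ZFP36, 2.75-fold; ZFP36L2, 3.23-fold; BTG1, 2.3-fold). Of all genes there, 3.24% and 8.94% were at least 2-fold lower at those doses.

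**Figure D3:**
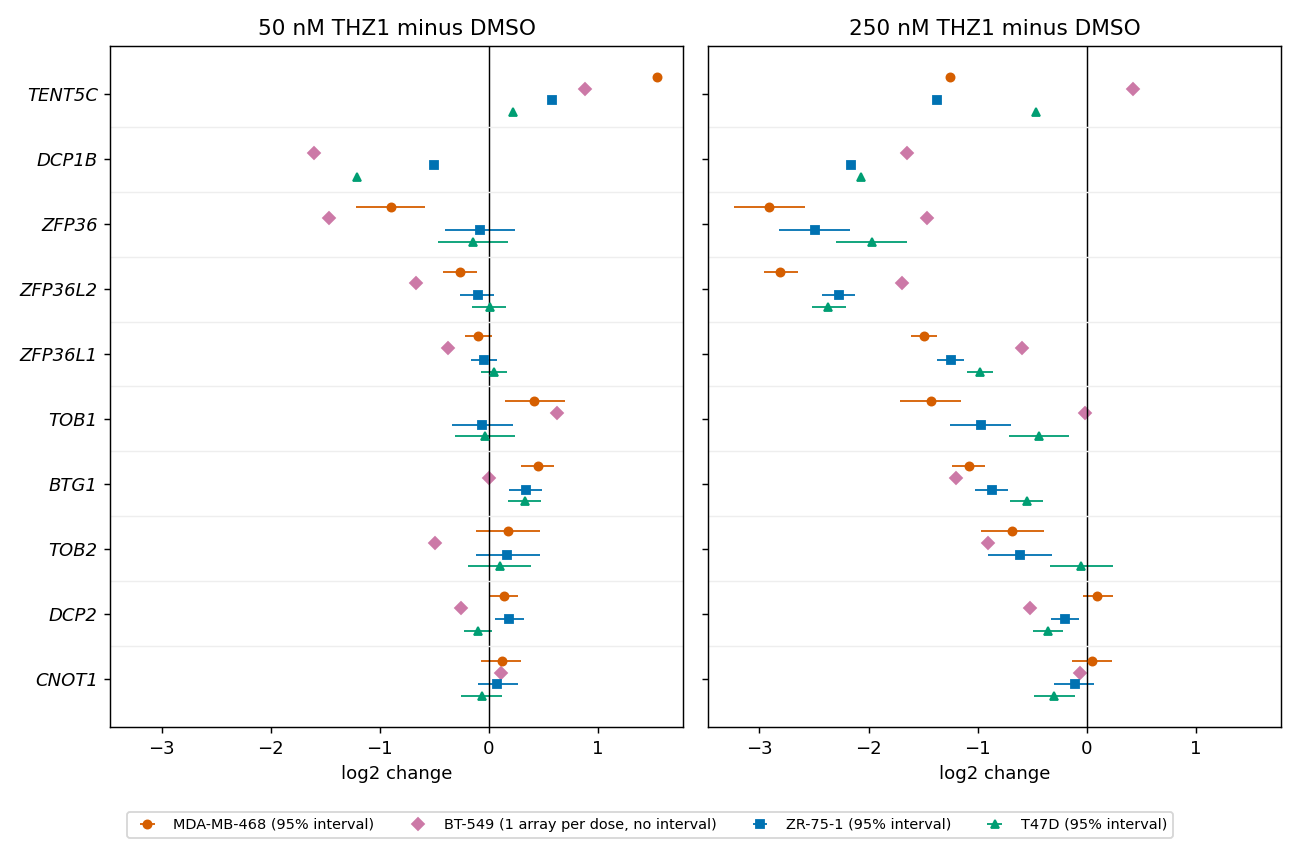
Log2 change from DMSO at 50 nM (left) and 250 nM (right) for the 10 genes in 4 lines. Points are fitted changes, bars 95% intervals for the 8 tested genes, BT-549 has 1 array per dose and no interval, and DCP1B of MDA-MB-468 is left out because its main probe set was not above background. TENT5C lies right of 0 at 50 nM and left of it at 250 nM in MDA-MB-468 (1.54 and -1.25), and the 3 ZFP36 genes lie left of 0 at 250 nM in every line.

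With each line counted once, 6 of 8 genes fell at 250 nM over all 4 lines, where 29.9% of all genes were called lower and 9.48% higher. They were ZFP36L2 (-2.28, adjusted p = 0.000113), ZFP36 (-2.21, 0.000974), ZFP36L1 (-1.08, 0.000897), BTG1 (-0.92, 0.000362), TOB1 (-0.71, 0.0322) and TOB2 (-0.56, 0.0172). Without MDA-MB-468 the calls of TOB1 and TOB2 were lost (0.0886 and 0.0799), without BT-549 that of TOB2 (0.0543), without ZR-75-1 both (0.129 and 0.066) and without T47D that of TOB1 (0.0604). At 50 nM none of the 8 passed over 4 lines in either direction, beside 0.316% lower and 0.182% higher of all genes, and BTG1 alone had an unadjusted limma p under 0.05 (log2 change 0.28).

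The size of the response at 250 nM differed between lines for 6 of the 8. In MDA-MB-468, set against the mean of ZR-75-1 and T47D, 5 fell further (5.12% of all genes were called that way): TOB1 by a log2 difference of -0.73 (adjusted p = 0.00451), ZFP36 -0.67 (0.0188), ZFP36L2 -0.49 (0.00135), ZFP36L1 -0.38 (0.00128) and BTG1 -0.38 (0.00648). DCP2 differed the other way, by 0.38 (0.0026; 13.9% of all genes). Scaling to control transcripts left 2 of the 5. With the mean of all probe sets the ZFP36L1 difference turned to 0.14 (adjusted p = 0.482), and BTG1 (-0.17, 0.352) and DCP2 (0.28, 0.0918) missed the threshold. For BTG1 that mean includes a probe set above background on no array. For DCP2 it includes probe sets that did not pass the filter. ZFP36 missed the threshold without 3 different MDA-MB-468 arrays (0.0519 to 0.0826). For ZR-75-1 against T47D, BTG1 (-0.32, adjusted p = 0.032) and ZFP36L1 (-0.27, 0.0261) fell further in ZR-75-1, where 19.8% of all genes did and 2.44% went the other way, and median centring left neither (0.377 and 0.431).

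With DMSO alone the lines already differed. TOB1 was 4.62-fold lower in MDA-MB-468 than in the mean of ZR-75-1 and T47D (adjusted p = 5.14e-11), and BTG1 1.97-fold lower (6.73e-10). ZFP36L2 and DCP2 were lower by 0.39 and 0.35 on the log2 scale, while CNOT1 was 2.54-fold higher (1.52e-10) and ZFP36L1 1.31-fold higher (3.17e-06), the second of which turned to -0.04 on the log2 scale with the mean of all probe sets (adjusted p = 0.646). These are 4 lower and 2 higher of 8, beside 34.4% and 33.1% of all genes. ZR-75-1 had 1.81-fold more TOB2 than T47D (4.2e-05) and less BTG1, ZFP36L1, ZFP36L2 and DCP2 (DCP2 2.47-fold, 3.66e-11), 1 higher and 4 lower beside 25.9% and 37.1%. For TENT5C the DMSO order was ZR-75-1, T47D, MDA-MB-468 and BT-549, with no shared values between neighbours.

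Across the 12 line-by-dose means, each centred on its line, the ZFP36 genes ran together (Pearson r = 0.99 for ZFP36L1 with ZFP36L2, 0.97 for ZFP36 with ZFP36L1). TENT5C was closest to TOB1 among the 10 (0.92), and had r = 0.26 with DCP1B. Among all 12643 other tested genes, MIA3 (0.994), MNAT1 (0.971) and TERF2IP (0.965) were most like TENT5C, and PLEKHA5 (0.983), RCAN1 (0.982) and CSNK1G1 (0.976) most like DCP1B. MIA3 averaged 409.8, 521 and 333 in MDA-MB-468 at DMSO, 50 and 250 nM, a far smaller swing than that of TENT5C. PLEKHA5 averaged 22.1, 20.9 and 21.9 there, and 242, 175 and 90.3 in T47D. The points share arrays and doses, and the MDA-MB-468 means of DCP1B were not above background. These r values therefore only describe the 12 means.

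Other genes of the same machinery were counted from lists of 113 genes, of which 95 besides the members were tested. At 250 nM 42 of 95 fell in MDA-MB-468 (44.2%), 59 in ZR-75-1 (62.1%) and 56 in T47D (58.9%), beside 30.3%, 42.8% and 33.7% of all genes lower. In the same order 10, 9 and 8 of the 95 rose (10.5%, 9.47% and 8.42%), near the 9.54%, 9.93% and 9.61% of all genes called higher. Their median changes were -0.24, -0.54 and -0.30. At 50 nM 20, 9 and 17 fell (21.1%, 9.47% and 17.9%, beside 14.6%, 5.68% and 7.56% of all genes) and 6, 7 and 2 rose (6.32%, 7.37% and 2.11%, beside 4.42%, 2.79% and 1.99%). Genes named below from these lists, other than EXOSC5, had the largest mean absolute test statistics of their list at 250 nM. Their changes at that dose therefore serve only as description.

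Among 17 deadenylase genes, 12 fell in MDA-MB-468, 14 in ZR-75-1 and 11 in T47D at 250 nM, and 1, 0 and 0 rose. As shares, 70.6%, 82.4% and 64.7% fell, beside 30.3%, 42.8% and 33.7% of all genes. The shares that rose were 5.88%, 0% and 0%, beside 9.54%, 9.93% and 9.61%. CNOT4, a ubiquitin ligase associated with the complex, averaged 56.7 ± 3.99 in 250 nM MDA-MB-468 cells and 283 ± 1.25 with DMSO (SD, n = 2 each), and fell by 2.32, 2.79 and 2.06 in MDA-MB-468, in ZR-75-1 and in T47D. The deadenylase subunit CNOT6L fell by 1.03, 1.23 and 0.92 in the same order. CNOT6, its paralog, fell by 0.71 in ZR-75-1 and 0.77 in T47D, with -0.14 in MDA-MB-468 (adjusted p = 0.0925). PDE12, a mitochondrial deadenylase, fell by 0.89 and 1.16 in MDA-MB-468 and ZR-75-1, with -0.22 in T47D (0.0939). Of the other BTG and TOB genes only BTG3 passed the filter, and its call as higher in T47D rests on 27.5 at 250 nM against 16.3 with DMSO, levels at or under background.

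Of 18 decapping genes 6, 10 and 9 fell and 4, 5 and 4 rose at 250 nM in the 3 lines. None of the decapping genes named here is among those that rose. The 33.3% lower in MDA-MB-468 was near the 30.3% of all genes. In ZR-75-1 and T47D 55.6% and 50% were lower, beside 42.8% and 33.7% of all genes. In the 3 lines 22.2%, 27.8% and 22.2% were higher, beside 9.54%, 9.93% and 9.61% of all genes. EIF4ENIF1, which ties the cap-binding protein eIF4E to decay factors, had log2 changes of -2.43, -2.61 and -2.52. DCP1A, the paralog of DCP1B, was measured in every line: it fell by 0.87, 1.04 and 1.31, to 133.5 ± 5.38 in MDA-MB-468 at 250 nM, against 243.5 ± 18.1 with DMSO (SD, n = 2 each). EDC3 and LSM14B, enhancers of decapping and P-body proteins, fell by less, 0.65, 0.54 and 0.29 for EDC3 and 0.39, 0.61 and 0.17 for LSM14B.

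Of 16 AU-rich element and other mRNA-binding genes 7, 9 and 11 fell at 250 nM and 1, 1 and 0 rose. These are 43.8%, 56.2% and 68.8% lower and 6.25%, 6.25% and 0% higher. Of all genes, 30.3%, 42.8% and 33.7% were lower and 9.54%, 9.93% and 9.61% higher. PUM2, a Pumilio repressor that also recruits CCR4-NOT, fell by 1.89, 2.63 and 0.89 at 250 nM and by 0.72, 0.30 and 0.40 at 50 nM. TNRC6C, of the microRNA silencing complex, fell by 0.70, 1.67 and 1.50, and the Roquin genes RC3H1 and RC3H2 by 0.56, 1.36 and 0.61 and by 0.36, 0.97 and 1.01. In MDA-MB-468 TNRC6C was dim, averaging 48.9 with DMSO and 30.3 ± 4.94 (SD) at 250 nM, near background. Among 18 poly(A) polymerase and poly(A)-binding genes 9, 10 and 12 fell at 250 nM and 3, 2 and 3 rose. Against the same shares of all genes, these are 50%, 55.6% and 66.7% lower and 16.7%, 11.1% and 16.7% higher. The poly(A) genes named here are not among those that rose. TENT5B, a paralog of TENT5C, fell at 250 nM, with log2 changes of -2.34, -2.39 and -1.17, and its 50 nM changes of 0.33, 0.12 and 0.09 did not pass (adjusted p = 0.15, 0.733 and 0.788). TUT7, a terminal uridylyltransferase, fell at both doses, by 1.04, 0.76 and 0.82 at 50 nM and by 1.22, 1.86 and 1.74 at 250 nM.

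**Figure D4:**
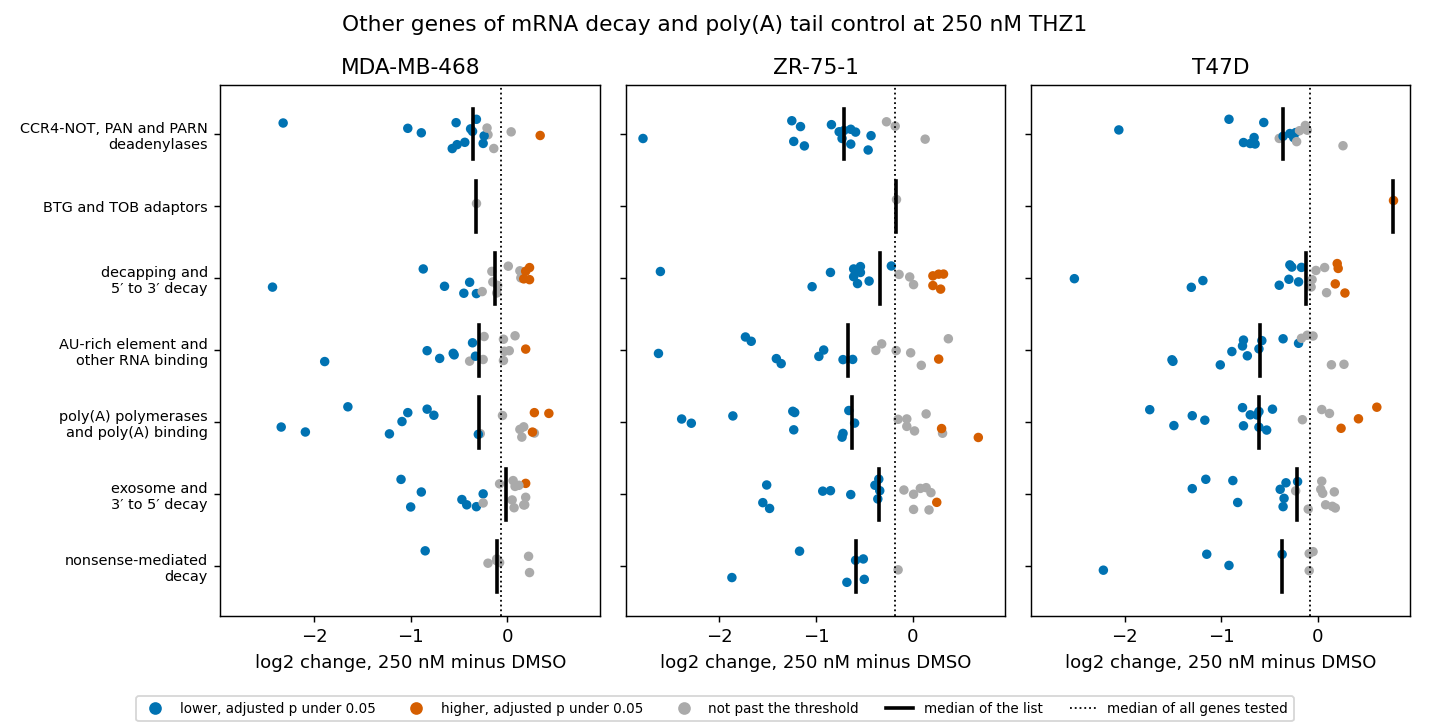
Log2 change at 250 nM against DMSO of the listed mRNA decay genes other than the 10, in 3 lines. Each point is a gene (blue called lower, orange called higher, grey neither), thick bars are list medians and the dotted line is the median of all tested genes. CNOT4 (-2.32 in MDA-MB-468) and EIF4ENIF1 (-2.43) are the lowest points of the deadenylase and decapping lists in that line.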

How the data were processed

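The authors deposited 1 table of linear MAS5 intensity values for 49395 probe sets on 21 PrimeView arrays, made with MAS5 per the submitters' processing notes; version and array scaling are not given in the sources used here. Per the labels, labelling started from 100 ng of total RNA with oligo(dT) priming, and ERCC spike-ins were added by cell number. No probe set in the files is named for the spike-ins, and whether the deposited values were scaled to them is not stated.

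Values were floored at 1, taken to log2 and not rescaled. Each gene is its probe set with the highest mean, and genes whose brightest group mean lay under the overall log2 median (5.84) were dropped, leaving 12644 genes. limma 3.58.1 in R 4.3.3 (eBayes with trend) fitted 18 arrays, and a second fit used 12 line-by-dose means. The model was tested on simulated data. Other genes were named by the mean size of their statistic within each list. The members and lists were chosen with earlier results of these data known. Deviations of same-numbered arrays correlated at -0.22 to 0.29. With so few arrays per group, these correlations cannot decide whether the numbers pair arrays. The fit of 18 arrays treated them as unpaired. The number of arrays limits precision.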

Additional observations from a re-analysis of the deposited data

Results flagged for a closer look

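Several responses at 250 nM differed between lines by a test of the difference itself. In MDA-MB-468, set against the mean of ZR-75-1 and T47D, the log2 change differed by -0.73 for TOB1, -0.67 for ZFP36, -0.49 for ZFP36L2, -0.38 for ZFP36L1 and -0.38 for BTG1, and by 0.38 for DCP2. ZR-75-1 against T47D differed by -0.32 for BTG1 and -0.27 for ZFP36L1. In the first comparison scaling to control transcripts ended the calls of BTG1, ZFP36 and ZFP36L1 (limma adjusted p = 0.17, 0.0607 and 0.116), and ZFP36L1 changed sign with the mean of all probe sets (0.14). Median centring ended both calls of the second (0.377 and 0.431).

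In other cases arrays of different lines moved in opposite directions, and the difference was not tested. BT-549 has 1 array per dose in each. For TENT5C at 250 nM the change was 0.43 in BT-549, -1.25 in MDA-MB-468, -1.37 in ZR-75-1 and -0.46 in T47D. For TOB2 at 50 nM it was -0.49 in BT-549, against 0.17 in both MDA-MB-468 and ZR-75-1 (difference of mean log2 values). For DCP2 at 50 nM it was 0.20 in ZR-75-1, -0.25 in BT-549 and -0.10 in T47D.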

How the results depend on the processing

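Of 465 recomputed values for ZFP36, ZFP36L1, ZFP36L2, BTG1 and TOB1 at 250 nM in the 3 replicated lines, 2 lost their call, both TOB1 in T47D. ZFP36 ranged from -3.03 to -2.71 in MDA-MB-468, -2.89 to -2.08 in ZR-75-1 and -2.24 to -1.70 in T47D, ZFP36L1 from -1.61 to -0.33, -1.64 to -0.44 and -1.16 to -0.49, ZFP36L2 from -2.93 to -1.74, -2.67 to -1.36 and -2.55 to -1.48, BTG1 from -1.21 to -0.73, -1.26 to -0.52 and -0.73 to -0.42, and TOB1 from -1.60 to -1.11, -1.36 to -0.72 and -0.61 to -0.31, in the same order of lines. Scaling moved the median of all genes at 250 nM by 0.21, 0.26 and 0.13 (median centring), 0.16, 0.27 and 0.15 (quantile) and -0.12, -0.38 and -0.17 (control transcripts) in MDA-MB-468, in ZR-75-1 and in T47D. Lower and higher calls over all genes in MDA-MB-468 were 3834 and 1206, and became 2745 and 3479, 2872 and 3094, and 4563 and 222 under those settings. In ZR-75-1 they were 5406 and 1256, and became 3986 and 3625, 3862 and 4184, and 9518 and 25. In T47D they were 4256 and 1215, and became 3279 and 2453, 3035 and 3359, and 5633 and 129. Scaling to spike-ins was not run.

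Signs turned as follows, and the cause was not tested. DCP2 at 250 nM in ZR-75-1 became 0.05 centred and 0.01 by quantile. CNOT1 by quantile became 0.35 at 250 nM in ZR-75-1, 0.25 there against 50 nM, and 0.00 in T47D. With the mean of all probe sets the MDA-MB-468 difference became 0.10 for TENT5C and 0.14 for ZFP36L1, the ZR-75-1 difference for ZFP36L1 became 0.05, and its DMSO level in MDA-MB-468 became -0.04. DCP1B in MDA-MB-468 was not recomputed, since its main probe set was not above background there. Leaving out 1 array gave a DCP1B difference of ZR-75-1 minus T47D of -0.38 to 0.21, and TENT5C in T47D at 50 nM -0.11 to 0.55.

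Counts of the 8 genes moved by over 1.5 times, or to or off 0, in these cases. Median centring gave 1 lower at 50 nM and 1 higher at 250 nM in MDA-MB-468, 4 lower in T47D (250 against 50 nM) and 0 for ZR-75-1 against T47D. Quantile normalization gave 1 higher in MDA-MB-468 and ZR-75-1 at 250 nM, 1 higher in ZR-75-1 against 50 nM, 1 lower and 3 higher for ZR-75-1 against T47D, and 2 higher for their DMSO levels. Control transcripts gave 1 lower and 1 higher in MDA-MB-468 and 1 lower and 0 higher in T47D at 50 nM, 2 lower and 2 higher for the MDA-MB-468 difference, and 5 lower for ZR-75-1 against T47D. A pseudocount of 16 gave 4 lower for that last difference, and the 75th percentile filter gave 0 higher for its DMSO levels, with 7 genes tested. The mean of probe sets gave 1 lower in MDA-MB-468 and 0 higher in ZR-75-1 and T47D at 50 nM, 3 lower and 0 higher for the MDA-MB-468 difference, and 1 higher for its DMSO levels. The probe set of largest variance gave 0 higher for that difference. Without the trend there was 1 higher in MDA-MB-468 at 50 nM and 1 lower for ZR-75-1 against T47D, and a fit of ZR-75-1 alone gave 0 higher at 50 nM. Within 1.5 times, the 7 lower at 250 nM in ZR-75-1 became 6 centred, 5 by quantile and 8 by control transcripts, and the 7 in T47D became 6 both centred and by quantile. Leaving out 1 array gave 1 to 2 lower and 1 to 3 higher in MDA-MB-468, 0 to 1 higher in ZR-75-1 and in T47D at 50 nM, 4 to 7 lower in T47D (250 against 50 nM), and 0 to 3 lower for ZR-75-1 against T47D.

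With the replicate number as a block, TOB1 in MDA-MB-468 at 50 nM stayed at 0.42 (limma adjusted p = 0.00547), 0 of 26 counts moved by over 1.5 times, and 1 call was gained (TOB1, ZR-75-1 against T47D, -0.53, adjusted p = 0.00923), which took the count lower there to 3, against 2 without the block. Signal near background limits the values of TOB2 and DCP1B, and those of SMG8 and TNRC6C in MDA-MB-468.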

Other observations

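Exosome and nonsense-mediated decay genes were also measured. Of 18 genes of the exosome and its cofactors, 7 fell in MDA-MB-468, 10 in ZR-75-1 and 9 in T47D at 250 nM, and 1, 1 and 0 rose, with median changes of -0.01, -0.35 and -0.22. As shares, 38.9%, 55.6% and 50% fell, beside 30.3%, 42.8% and 33.7% of all genes. Among core subunits EXOSC6 fell in each line by 1.10, 1.55 and 0.88, EXOSC4 by 0.89, 1.51 and 1.16, EXOSC3 by 1.00, 1.48 and 1.30, and EXOSC2 by 0.25, 0.93 and 0.36, while the changes of EXOSC5 were 0.19, 0.17 and 0.08 and did not pass the test. Of 7 nonsense-mediated decay genes, 1 fell in MDA-MB-468, 6 in ZR-75-1 and 4 in T47D, and none rose; these are 14.3%, 85.7% and 57.1%, beside 30.3%, 42.8% and 33.7% of all genes. SMG8, a regulator of the SMG1 kinase, fell by 0.85, 1.87 and 2.22. In MDA-MB-468 it was dim, averaging 59.4 with DMSO and 33.8 ± 10.4 (SD) at 250 nM, near background. UPF2, an adaptor of the helicase UPF1, fell by 1.17 in ZR-75-1 and 1.15 in T47D, with -0.11 in MDA-MB-468, where it did not pass the test.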
